A study of Populus ussuriensis with 12 samples.

Results

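KAT1 (Potri.004G132200), KAT3 (Potri.018G035500) and SRK2E (Potri.009G106900) are 3 genes that the deposited annotation of poplar leaf RNA names after guard cell proteins of Arabidopsis, out of 35747 genes in all. They were selected by gene ID, on measured values of these same libraries across all 4 groups, so their levels and differences are given as a description without a test. The plants were Populus ussuriensis, either overexpressing the microRNA Pu-miR172d (OE) or wild type (WT), and each genotype was sampled after 4 days without water (drought) and under watering. The groups are thus OE drought, OE watered, WT drought and WT watered, with 3 libraries each. All were 70-day-old soil-grown plants raised in vitro for 4 weeks before potting, and their leaves 7 and 8, counted from the shoot tip, were sampled. The labels give neither the promoter that drives the microRNA nor the number of transgenic lines, and whether the 3 replicates of a group came from different plants is not stated. A p-value here therefore reflects the spread among these samples alone, and that spread may be technical. The title of the series gives stomatal differentiation under drought as its subject.

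Guard cells open the stomatal pore by taking up potassium through inward-rectifying channels of the Shaker type and close it by releasing potassium and anions. In Arabidopsis, KAT1 forms such an inward channel, and KAT3 (also called KC1) is a subunit that forms no current of its own and tunes the channels it joins. SRK2E, known in Arabidopsis as OPEN STOMATA 1, is a kinase of the SnRK2 family: abscisic acid (ABA) bound to its receptors holds back the PP2C phosphatases, and the freed kinase acts on ion channels to close the pore.

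Levels are in FPKM, fragments scaled to gene length and library total, and the libraries held 9682111 to 12131416 fragments. Differences are of log2(FPKM + 1) with the moderated standard error of limma, and they understate changes of low levels. Adjusted p-values are from limma with Benjamini-Hochberg adjustment over the 25373 genes that reached 1 FPKM in 3 or more libraries, at a threshold of 0.05. Replicates 4 and 6 of OE drought were the most alike pair (chi-square of 3.9 per gene, where 1 is sampling noise, against 12.4 to 71.6 in the other pairs), and replicate 6 of WT drought stood farthest from its group (mean r of 0.926). The microRNA itself was not measured in these libraries. Messenger RNA makeup shifted widely with drought: summed FPKM of 31 mesophyll marker genes (small chains of Rubisco and chlorophyll-binding proteins) was 200 to 1148 in OE drought and 26505 to 38434 in OE watered, against 2295 to 4073 in WT drought and 38672 to 47297 in WT watered leaves. Phloem markers (43 genes) summed to 445 to 659 FPKM in OE drought and 507 to 632 in OE watered, and 347 to 1189 in WT drought and 426 to 514 in WT watered leaves. Xylem markers (66 genes) summed to 294 to 465 FPKM in OE drought and 170 to 451 in OE watered leaves. In WT leaves they summed to 145 to 284 under drought and 245 to 843 when watered. By gene, with drought, 4 of 30 tested phloem markers rose and 16 fell in OE, and 4 rose and 14 fell in WT. Of 47 tested xylem markers, 12 rose and 22 fell in OE, and 9 rose and 27 fell in WT. Of all tested genes, 27.8% rose and 35.0% fell in OE, and 33.9% rose and 21.7% fell in WT. Similar sums thus do not mean that the genes of a list were unchanged.

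KAT1 lies on chromosome 4 at 15085707 to 15091097, plus strand, in the coordinates of the authors' table (genome build not given in the sources used here). It was measured at 7.11, 4.83 and 7.66 FPKM in OE drought and at 5.03, 6.74 and 5.43 FPKM in OE watered leaves. In WT drought leaves it stood at 0.459, 1.19 and 1.51 FPKM, against 5.45, 6.40 and 6.82 FPKM in WT watered leaves. The 3 WT drought libraries are the low ones, each below every other library, and the remaining 9 libraries overlap between their groups. The lowest value rests on 22 fragments and the highest on 376.

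In WT leaves, KAT1 averaged 1.05 ± 0.540 FPKM under drought and 6.22 ± 0.702 FPKM when watered (SD, n = 3 each), a log2 difference of -1.85 ± 0.23 (SE). In OE leaves it averaged 6.53 ± 1.50 FPKM under drought and 5.73 ± 0.891 FPKM when watered, a log2 difference of 0.15 ± 0.23. Between genotypes under drought, KAT1 was 6.20-fold higher in OE than in WT leaves by the ratio of mean FPKM (log2 difference 1.89 ± 0.23), and the groups do not overlap. In watered leaves the genotypes overlap, at -0.10 ± 0.23. The drought difference in OE minus that in WT was 2.00 ± 0.33. Leaving out any 1 library kept the WT drought difference between -2.01 and -1.62. With fewer cells of a type in a leaf, or less of a messenger per cell, bulk RNA gives the same reading, so these cannot be told apart for any of the 3 genes.

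**Figure D1:**
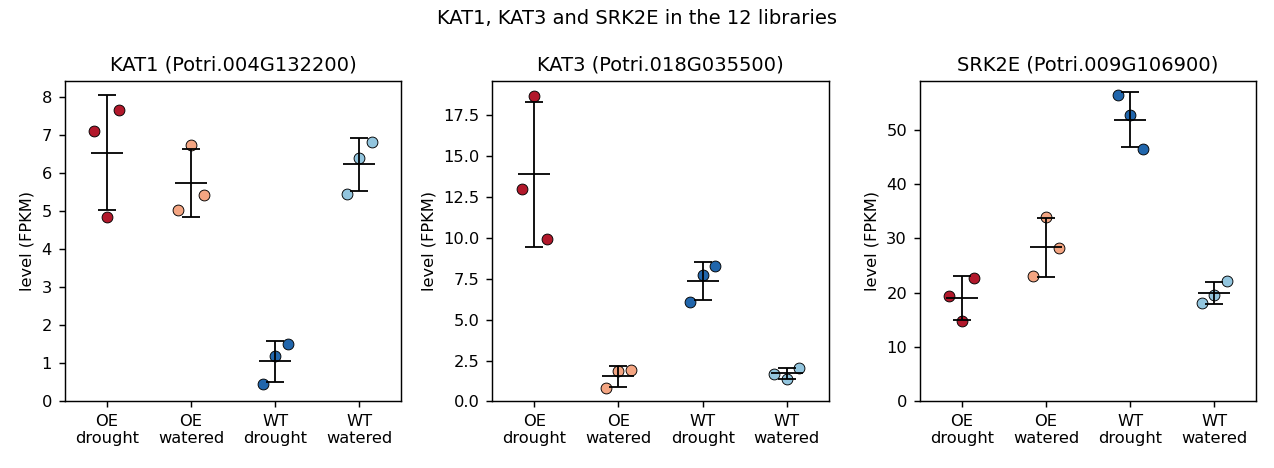
Level in FPKM of KAT1, KAT3 and SRK2E in each of the 12 libraries (points), with the group mean and SD (bars, n = 3), in OE drought, OE watered, WT drought and WT watered leaves. KAT1 is low in the 3 WT drought libraries (0.459 to 1.51 FPKM), KAT3 is high in both drought groups, and SRK2E is high in WT drought (46.5 to 56.4 FPKM).

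The naming of KAT1 rests on its UniProt description. The protein domain the table lists for it is Glyco_hydro_47, the family of the alpha-mannosidases, and its best match in the listed protein database is an uncharacterized protein. The table thus calls it a channel gene by the description alone. Its span overlaps by 855 bp the gene Potri.004G132300 on the minus strand, described as the alpha-mannosidase MNS3, an enzyme that trims sugar chains of glycoproteins. The library kit named in the design text does not mark strand, so reads in the overlap cannot be assigned to either gene. MNS3 was measured at 13.9, 15.4 and 12.3 FPKM in OE drought and 4.29, 6.06 and 4.62 FPKM in OE watered, against 12.8, 10.0 and 16.5 FPKM in WT drought and 6.84, 6.54 and 7.61 FPKM in WT watered leaves. It rose with drought in OE (log2 difference 1.32, limma adjusted p = 8.49e-05) and in WT leaves (0.79, limma adjusted p = 0.00410). In WT leaves the neighbour was thus higher under drought where KAT1 was lower. How many KAT1 fragments lie in the overlap was not tested.

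KAT3 lies on chromosome 18 at 2876389 to 2885829, minus strand, and no other gene of the table overlaps it. It was measured at 13.0, 18.7 and 9.95 FPKM in OE drought and at 0.799, 1.87 and 1.91 FPKM in OE watered leaves. In WT leaves the values were 6.06, 7.72 and 8.30 FPKM under drought and 1.70, 1.39 and 2.06 FPKM when watered. Both drought groups lie wholly above both watered groups, the OE drought libraries lie above the WT drought ones, and the watered groups overlap. Its watered values rest on few fragments, 21 to 49 per library.

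Mean KAT3 was 13.9 ± 4.44 FPKM in OE drought and 1.53 ± 0.632 FPKM in OE watered leaves (SD, n = 3 each), 9.08-fold higher, with a log2 difference of 2.55 ± 0.25 (SE). The WT means were 7.36 ± 1.17 FPKM under drought and 1.72 ± 0.338 FPKM when watered, 4.29-fold higher, with a log2 difference of 1.62 ± 0.25. OE exceeded WT under drought by 0.80 ± 0.25 on the log2 scale, a 1.89-fold ratio of means, and differed from it by -0.13 ± 0.25 when watered. That last value took either sign as libraries were left out, from -0.25 to 0.10. The drought difference in OE minus that in WT was 0.93 ± 0.36, the smallest of the 3 genes in size, and it ranged from 0.70 without OE watered replicate 1 to 1.13 without OE drought replicate 6.

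Between the 2 genes described as channels, the ratio of KAT3 to KAT1 in FPKM was 1.83, 3.87 and 1.30 in OE drought and 0.159, 0.278 and 0.353 in OE watered leaves. Among WT leaves it was 13.2, 6.51 and 5.48 under drought and 0.312, 0.217 and 0.302 when watered. KAT1 is thus the more abundant of the pair in all 6 watered libraries and KAT3 in all 6 drought libraries, with the highest ratios in WT drought.

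SRK2E lies on chromosome 9 at 9309127 to 9313323, plus strand, with a protein kinase domain, a listed protein match to an OPEN STOMATA 1 family protein and no overlapping gene. It was measured at 19.4, 14.8 and 22.8 FPKM in OE drought and at 23.0, 33.9 and 28.2 FPKM in OE watered leaves. The WT values were 56.4, 52.7 and 46.5 FPKM under drought and 18.2, 19.5 and 22.2 FPKM when watered. WT drought libraries are the high ones, above all others. OE watered libraries come next and lie just above WT watered ones, while OE drought and WT watered libraries overlap. Each value rests on 351 to 1340 fragments, the best count of the 3 genes.

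By group mean, and as a description only, SRK2E was lower under drought than under watering in OE leaves and higher in WT leaves. SRK2E averaged 19.0 ± 3.99 FPKM in OE drought and 28.4 ± 5.49 FPKM in OE watered leaves (SD, n = 3 each), a log2 difference of -0.56 ± 0.19 (SE). In WT leaves it averaged 51.9 ± 4.99 FPKM under drought and 20.0 ± 2.07 FPKM when watered, 2.60-fold higher, with a log2 difference of 1.33 ± 0.19. Every OE drought library is below every OE watered one, by a gap of only 22.8 to 23.0 FPKM, and every WT drought library is above every WT watered one. Of all tested genes, 2.27% showed this crossing, higher in WT drought and lower in OE drought with no overlap in either genotype. Under drought the OE mean was 0.366 of the WT mean (log2 difference -1.42 ± 0.19), and when watered OE exceeded WT by 0.47 ± 0.19. The drought difference in OE minus that in WT was -1.89 ± 0.26 and stayed between -2.03 and -1.73 with any 1 library left out.

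**Figure D2:**
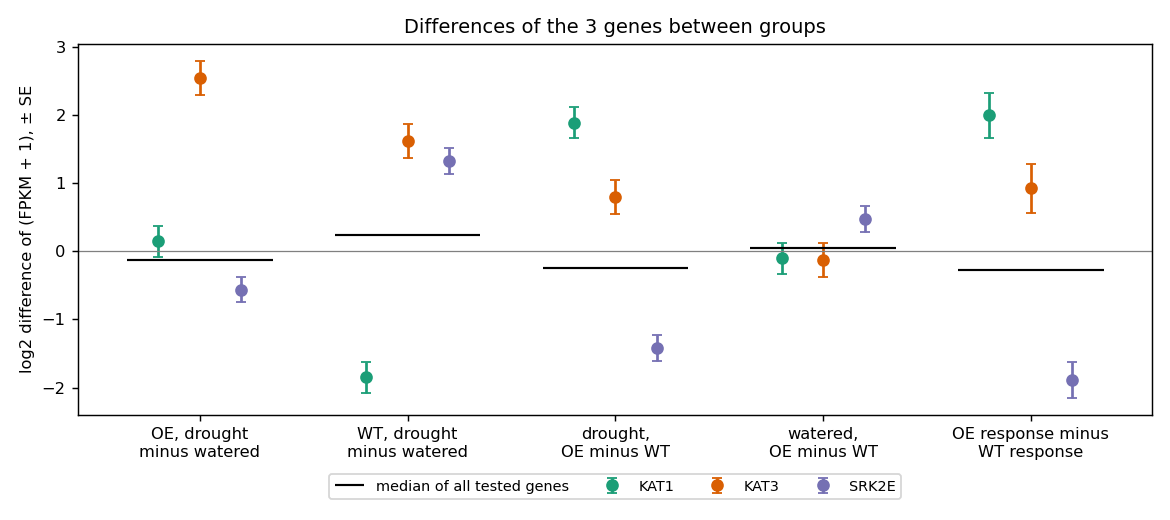
Log2 difference of (FPKM + 1) ± SE of KAT1, KAT3 and SRK2E in 5 comparisons (points), beside the median of all 25373 tested genes (black lines). SRK2E is above 0 for drought in WT (1.33) and below 0 in OE (-0.56), KAT1 is below 0 in WT (-1.85), and KAT3 is above 0 in both.

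These differences stand against a leaf in which many genes moved. With drought in OE leaves, 27.8% of tested genes rose and 35.0% fell by limma, and for 70.0% the groups did not overlap; in WT leaves 33.9% rose, 21.7% fell and 62.9% did not overlap. Between genotypes under drought, 9.23% were higher and 20.4% lower in OE, with 44.9% not overlapping. In watered leaves 0.0985% were higher and 0.0394% lower in OE, with 17.5% not overlapping. The drought response was more positive in OE for 4.58% and more negative for 10.5%. Groups that do not overlap are therefore common for the drought comparisons, and nothing is read from the same gap in KAT1, KAT3 or SRK2E. The drought comparisons between genotypes also depend on scaling: the median of all tested genes was -0.241 (log2) for OE minus WT drought and -0.278 for the difference of responses, against 0.245 for WT and -0.126 for OE drought minus watered. With median-of-ratios scaling 3858 genes were higher and 2575 lower in OE drought than in WT drought, in place of 2341 and 5176. With the median of all genes subtracted, SRK2E stood at 1.09 for drought in WT leaves and at -1.18 for OE minus WT drought (log2). No difference of the 3 genes changed sign under a scaling.

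KAT1 and KAT3 are described as Shaker-type potassium channels, and the deposited table describes 11 further ones, 5 of them above the filter. Of these 5, 1 rose and 3 fell with drought in OE leaves, at a median log2 difference of -1.34 (all tested genes -0.13), and 1 rose and 2 fell in WT leaves, at a median of -0.35 (all tested genes 0.25). Among all tested genes 27.8% rose and 35.0% fell in OE and 33.9% rose and 21.7% fell in WT, so from these few genes nothing particular to the family is read. The pair of other genes described as KAT3, Potri.006G245000 and Potri.012G124900, stayed below the filter. None of the 5 passed between genotypes when watered (limma; 1 at an unadjusted p under 0.05, and 0 by voom, limma's fit to the recovered fragments) and none in the difference of responses (limma; 2 unadjusted, 0 by voom). OE and WT drought differed for 1 of them. In the difference of responses AKT2/3 (limma adjusted p = 0.0616) passed without OE watered replicate 3 (0.0438). SKOR Potri.012G043000 (limma adjusted p = 0.0721) passed without WT drought replicate 6 (0.0214). For OE minus WT drought, AKT2/3 (limma adjusted p = 0.0681) passed with a pseudocount of 0.1 (0.0463) and without OE watered replicate 2 (0.0265). AKT1 Potri.018G071400 (limma adjusted p = 0.929) passed there without WT drought replicate 6 (0.0470).

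AKT2/3 (Potri.003G018800), known in Arabidopsis as a weakly rectifying channel of the phloem and mesophyll, was the most abundant Shaker channel of watered leaves. Its level was 3.76, 2.42 and 2.54 FPKM in OE drought and 28.9, 52.3 and 25.2 FPKM in OE watered, against 4.19, 4.81 and 6.90 FPKM in WT drought and 27.0, 21.9 and 25.7 FPKM in WT watered leaves. It fell with drought in OE by a log2 difference of -3.17 ± 0.26 (limma adjusted p = 1.19e-06) and in WT of -2.06 ± 0.26 (limma adjusted p = 6.01e-05), and neither group pair overlaps. SKOR (Potri.004G083300), in Arabidopsis an outward channel that loads potassium into the xylem, moved the other way. It averaged 12.8 ± 2.06 FPKM in OE drought and 2.59 ± 1.94 FPKM in OE watered, and 10.7 ± 2.17 FPKM in WT drought and 0.885 ± 0.237 FPKM in WT watered leaves (SD, n = 3 each). It rose by 2.07 in OE (limma adjusted p = 0.000115) and 2.63 in WT (limma adjusted p = 3.45e-05). AKT1 (Potri.018G031600), an inward channel of Arabidopsis roots, fell in OE (-1.43, limma adjusted p = 8.78e-05) and in WT (-1.54, limma adjusted p = 8.44e-05).

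The other AKT1 gene (Potri.018G071400) did not pass in either genotype, with log2 differences of 0.36 in OE and 0.88 in WT (limma adjusted p = 0.391 and 0.0517), and its WT drought mean leans on replicate 6 at 7.64 FPKM, against 1.96 and 1.87 FPKM. The WT difference passed with a pseudocount of 0.1 (adjusted p = 0.0434) and without WT drought replicates 4 (0.0291) or 5 (0.0237). The remaining SKOR gene (Potri.012G043000) fell in OE with drought (-1.34, limma adjusted p = 0.000518), was at -0.35 in WT (limma adjusted p = 0.240, but 0.0475 with median-of-ratios scaling and 0.0313 without WT drought replicate 4) and was lower in OE than in WT under drought (-0.79, limma adjusted p = 0.0328). That last call ranged from an adjusted p of 0.00974 to 0.126 over the alternatives. It was lost without WT drought replicates 4 (0.126) or 5 (0.0503), or OE drought replicates 4 (0.0688), 5 (0.102) or 6 (0.0539), and with only the drought groups in the fit (0.0933), median-of-ratios scaling (0.0620) or no filter (0.0530). With the block of replicate numbers it was 0.0519.

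Expressed as shares, in which KAT1 is counted by its description, KAT3 made up 33.6 ± 10.5% of the summed FPKM of all 13 Shaker genes in OE drought and 2.85 ± 1.25% in OE watered leaves, and 23.2 ± 2.43% in WT drought and 4.08 ± 0.575% in WT watered leaves (SD, n = 3 each). KAT1 made up 15.8 ± 3.79% in OE drought and 10.8 ± 1.69% in OE watered, against 3.24 ± 1.46% in WT drought and 15.0 ± 2.57% in WT watered leaves. AKT2/3 held 7.03 ± 1.64% in OE drought and 63.6 ± 6.86% in OE watered, against 16.5 ± 2.53% in WT drought and 59.3 ± 0.667% in WT watered leaves. The summed level itself was 41.3 ± 1.07 FPKM in OE drought and 54.9 ± 18.1 FPKM in OE watered, and 31.7 ± 3.51 FPKM in WT drought and 41.9 ± 4.03 FPKM in WT watered leaves. By mean share, watered leaves were thus led by AKT2/3, and droughted leaves by KAT3 and SKOR Potri.004G083300. That SKOR gene held 31.2 ± 5.42% in OE drought and 34.5 ± 10.0% in WT drought. In WT drought replicate 6 the lead was slight, with KAT3 at 23.2%, this SKOR at 23.0%, AKT1 Potri.018G071400 at 21.4% and AKT2/3 at 19.3%. For KAT3 this is by description only, since it was selected on these values.

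**Figure D3:**
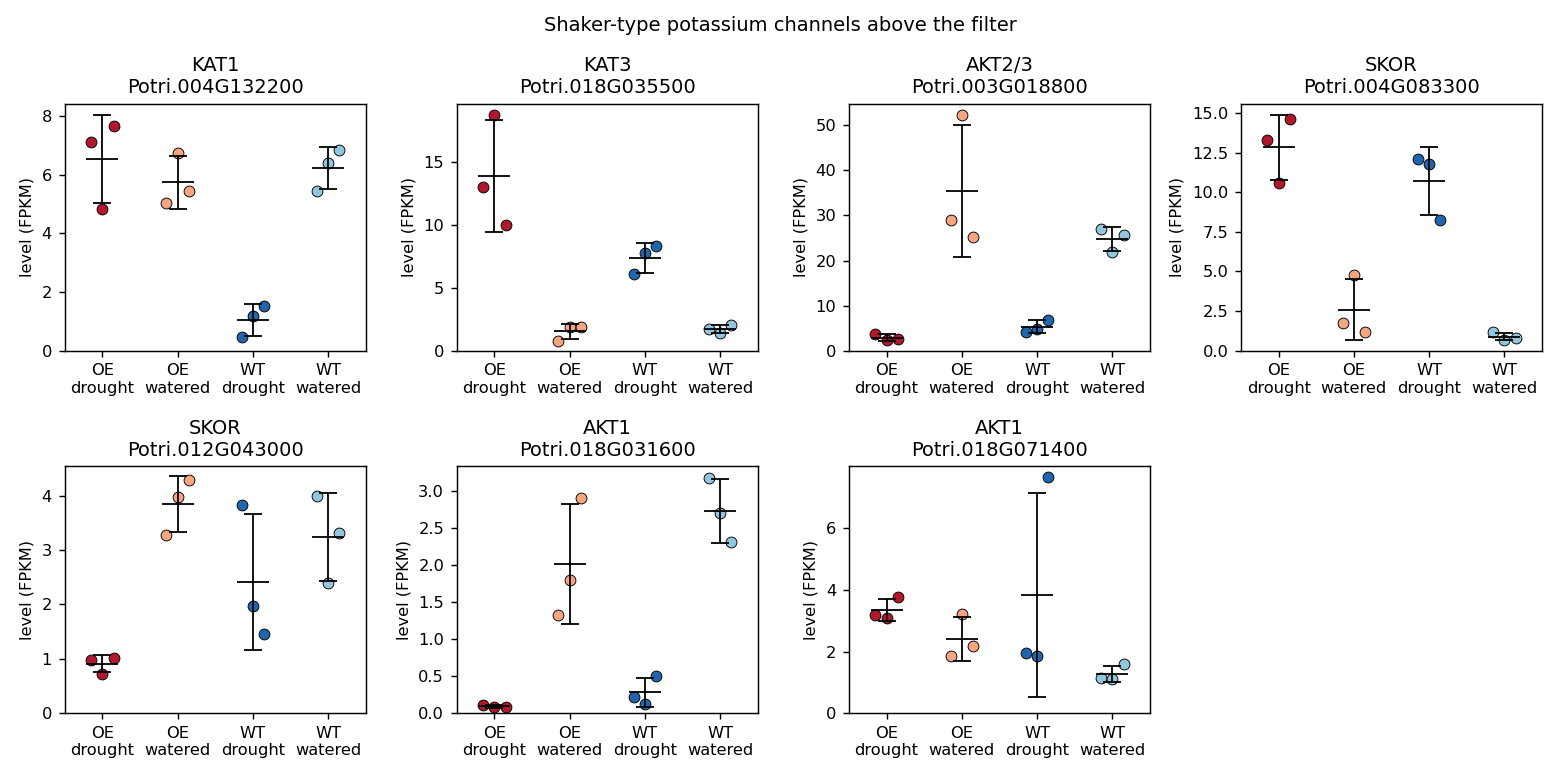
Level in FPKM of the 7 genes above the filter that are described as Shaker-type potassium channels. Points are libraries, and bars are group mean and SD (n = 3). KAT1 is counted by its description alone. Watered leaves are high in AKT2/3 (21.9 to 52.3 FPKM) and drought leaves in KAT3 and SKOR Potri.004G083300, while KAT1 is low in WT drought.

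Among the SnRK2 kinases, 13 genes besides SRK2E are described in the table and 12 passed the filter. With drought in OE leaves 3 of the 12 rose and none fell, at a median log2 difference of 0.24 (all tested genes -0.13). In WT leaves 6 rose and none fell, at a median of 0.64 (all tested genes 0.25). At an unadjusted p under 0.05 limma had 3 raised and 0 lowered in OE and 8 raised and 0 lowered in WT, and voom lowered 0 in both. The shares of all tested genes were 27.8% raised and 35.0% lowered in OE and 33.9% raised and 21.7% lowered in WT leaves.

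The other gene described as SRK2E (Potri.004G145500) was close to it in level. It stood at 23.7, 19.6 and 22.7 FPKM in OE drought and 19.8, 28.1 and 22.0 FPKM in OE watered, against 39.1, 41.2 and 26.3 FPKM in WT drought and 19.8, 15.0 and 18.7 FPKM in WT watered leaves. The OE groups overlap, and the WT drought libraries lie above the WT watered ones. It rose with drought in WT (0.94 ± 0.20, limma adjusted p = 0.00186) and differed by -0.07 ± 0.20 in OE (limma adjusted p = 0.781). The ratio of SRK2E to this copy was 0.816, 0.757 and 1.00 in OE drought and 1.16, 1.21 and 1.28 in OE watered, and 1.44, 1.28 and 1.77 in WT drought and 0.917, 1.30 and 1.19 in WT watered leaves. Reads shared by the copies could be split between them, and how such reads were counted was not stated.

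SAPK2 (Potri.005G072600), named after a rice SnRK2 kinase, rose most. It averaged 11.3 ± 2.69 FPKM in OE drought and 0.683 ± 0.231 FPKM in OE watered, and 11.3 ± 4.32 FPKM in WT drought and 0.187 ± 0.159 FPKM in WT watered leaves (SD, n = 3 each), with log2 differences of 2.85 in OE (limma adjusted p = 3.93e-06) and 3.31 in WT (limma adjusted p = 2.70e-06). SRK2I (Potri.005G134400), in Arabidopsis a kinase of ABA responses in seeds, rose by 0.67 in OE (limma adjusted p = 0.00692) and 0.97 in WT (limma adjusted p = 0.000852). Raised in WT by the same test were SRK2H (Potri.T011000, 1.15) and the SAPK2 genes Potri.005G162500 (0.86) and Potri.002G099700 (0.73), which stood at 0.31, -0.21 and 0.24 in OE. The OE value of SRK2H (limma adjusted p = 0.168) passed without OE watered replicate 3 (0.0391). SRK2B (Potri.004G218200) rose by 0.47 in OE (limma adjusted p = 0.0146), a call lost without OE watered replicate 1 (0.0717; range over the alternatives 0.00517 to 0.0717). The remaining 5, SRK2A (Potri.003G015400), SRK2B (Potri.T172500), SAPK3 (Potri.003G084100), SAPK7 (Potri.004G138300) and SAPK2 (Potri.007G096400), differed by -0.22 to 0.38 in OE and -0.20 to 0.55 in WT and passed in neither with all libraries in the fit. SAPK2 Potri.007G096400 in WT (limma adjusted p = 0.0785) passed with only the WT groups (0.0449) and without WT drought replicate 6 (0.0436) or OE watered replicates 2 (0.0381) or 3 (0.0470). SAPK3 passed in WT (limma adjusted p = 0.0663) without OE watered replicates 2 (0.0436) or 3 (0.0397), and in OE (limma adjusted p = 0.160) without OE watered replicate 2 (0.0408).

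Between genotypes under drought, 3 of the 12 kinases were lower in OE and none higher by limma (1 higher at an unadjusted p under 0.05, 0 by voom), at a median of -0.11 (all tested genes -0.24). Of all tested genes 20.4% were lower and 9.23% higher in OE. SAPK2 Potri.005G162500 was lower by -0.79 ± 0.18 (limma adjusted p = 0.00900, at most 0.0446 in any alternative). SRK2E's copy was at -0.65 ± 0.20 (limma adjusted p = 0.0300, range 0.00477 to 0.166), a call lost without WT drought replicates 4 (0.104) or 5 (0.0992), OE drought replicates 4 (0.0534), 5 (0.0978) or 6 (0.0530), with median-of-ratios scaling (0.166), or with only the drought groups (0.0784) or the block of replicate numbers (0.0680) in the fit. SRK2H was at -0.56 ± 0.19 (limma adjusted p = 0.0394, range 0.0240 to 0.226) and its call was lost under 13 of 19 alternatives. Those included leaving out WT watered replicates 1 (0.0556) or 2 (0.0537), WT drought replicates 4 (0.0915), 5 (0.0821) or 6 (0.0552), OE watered replicate 1 (0.0516) and OE drought replicates 4 (0.127) or 5 (0.0865). When watered, 0 of the 12 passed (limma; 0 also at an unadjusted p under 0.05, and 0 by voom). SRK2E, at -1.42 under drought, is the gene of the family with the largest OE minus WT difference there, by description only, since it was selected on these values.

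**Figure D4:**
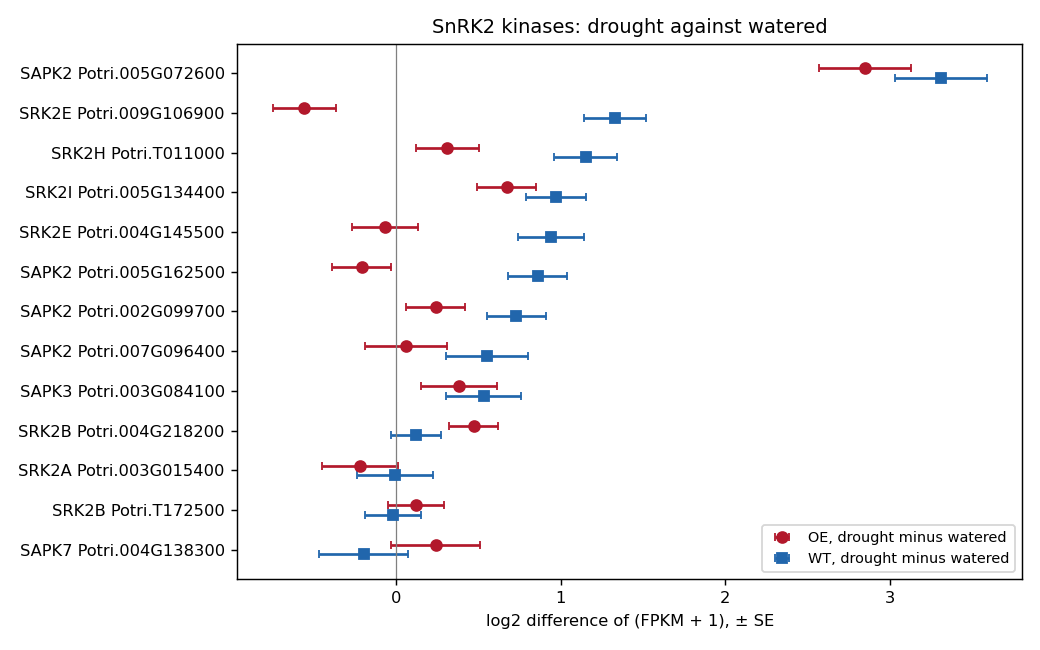
Log2 difference of (FPKM + 1) ± SE between drought and watered leaves for SRK2E and the 12 other SnRK2 kinases above the filter, in OE (circles) and WT (squares). SRK2E Potri.009G106900 is at -0.56 in OE and 1.33 in WT, and SAPK2 Potri.005G072600 is highest in both genotypes (2.85 and 3.31).

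By share, SRK2E made up 5.85 ± 0.579% of the summed FPKM of the 14 SnRK2 genes in OE drought and 9.74 ± 1.44% in OE watered, against 13.1 ± 0.623% in WT drought and 8.10 ± 1.06% in WT watered leaves (SD, n = 3 each). The sum was 322 ± 38.2 FPKM in OE drought and 294 ± 59.4 FPKM in OE watered, and 397 ± 50.2 FPKM in WT drought and 248 ± 22.3 FPKM in WT watered leaves. The mean share of SRK2E was thus lower under drought than under watering in OE leaves, and higher in WT leaves. This is by description only, since the gene was selected on these values. SAPK2 Potri.007G096400 was the most abundant of the family in every group, at 32.2 ± 1.42% in OE drought, 34.6 ± 5.75% in OE watered, 29.9 ± 1.70% in WT drought and 32.6 ± 1.43% in WT watered leaves.

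The genes that act before and after SRK2E in the ABA pathway were set beside it, to be read against the 27.8% of all tested genes that rose and 35.0% that fell with drought in OE, and the 33.9% that rose and 21.7% that fell in WT leaves. Of 11 tested ABA receptors, 0 rose and 7 fell in OE by limma (0 rose at an unadjusted p under 0.05 and 0 by voom), and 2 rose and 4 fell in WT leaves. PYL2 (Potri.006G230600) fell furthest, by -3.82 in OE (limma adjusted p = 2.08e-07) and -2.99 in WT (limma adjusted p = 2.39e-06). Of 12 clade A PP2C phosphatases, which hold SnRK2 kinases inactive, 8 rose and 1 fell in OE and 9 rose and 0 fell in WT by limma (0 fell at an unadjusted p under 0.05 and 0 by voom). Protein phosphatase 2C 3 (Potri.009G037300) rose by 4.56 in OE (limma adjusted p = 9.09e-08) and 5.24 in WT (limma adjusted p = 7.32e-08). Among 11 factors of the ABF and AREB type, which SnRK2 kinases phosphorylate, 3 rose and 1 fell in OE, and 8 rose and 1 fell in WT leaves. The list medians were -0.81, 1.33 and 0.30 in OE and 0.02, 1.56 and 1.34 in WT, against all tested genes at -0.13 and 0.25.

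Other ion transport genes and guard cell signalling genes are read against those same shares of all tested genes, and nothing particular to these lists is drawn from their counts. Of 37 tested potassium transport genes outside the Shaker family, 12 rose and 7 fell with drought in OE, and 9 rose and 7 fell in WT leaves, at medians of -0.14 and 0.18. Potassium transporter 13 (Potri.003G148200) rose by 3.55 in OE (limma adjusted p = 2.78e-08) and 2.79 in WT (limma adjusted p = 1.97e-07). Potassium transporter 5 (Potri.014G132500) rose by 5.83 in OE (limma adjusted p = 4.61e-05) and 2.81 in WT (limma adjusted p = 0.00906). Two-pore potassium channel 1 (Potri.008G004700) fell in WT (-3.03, limma adjusted p = 0.00363). Of 16 anion channels and plasma membrane proton pumps, the pumps being what drives potassium uptake through KAT-type channels, 5 rose and 6 fell in OE, and 3 rose and 5 fell in WT, at medians of -0.50 and -0.05. The proton pump ATPase 11 (Potri.015G066000) fell by -3.28 in OE (limma adjusted p = 1.03e-07) and -1.78 in WT (limma adjusted p = 1.62e-05), and was lower in OE than in WT under drought, at -1.72 (limma adjusted p = 0.000193). In that comparison 5 of the 16 were higher and 4 lower in OE (9.23% and 20.4% of all tested genes). The malate transporter ALMT2 (Potri.009G017900) and the proton pump ATPase 7 (Potri.014G046300) were higher, at 2.45 and 1.96 (limma adjusted p = 5.60e-06 and 0.000109). Of 28 further kinases and oxidases of guard cell signalling, 10 rose and 10 fell in OE and 10 rose and 4 fell in WT leaves, at medians of -0.32 and 0.23. The oxidase RBOHD (Potri.003G159800), which makes reactive oxygen during ABA-driven closure, rose by 6.61 in OE (limma adjusted p = 6.91e-08) and 3.17 in WT (limma adjusted p = 2.40e-05). Mitogen-activated protein kinase 12 (Potri.008G129966) fell by -5.70 in OE (limma adjusted p = 4.40e-07) and -4.67 in WT (limma adjusted p = 3.79e-06).

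Guard cells are a small part of a leaf, so the genes that mark them were set beside KAT1, KAT3 and SRK2E. The marker list matched 22 genes, 17 of which are described as the kinase HT1, a broad description, and none as MYB60 or GORK. With drought 7 of the 19 tested rose and 8 fell in OE (27.8% and 35.0% of all tested genes), and 6 rose and 3 fell in WT leaves (33.9% and 21.7%), at medians of -0.39 and 0.19. The HT1 genes Potri.005G213200 and Potri.005G082200 rose in OE by 2.62 and 2.38 (limma adjusted p = 7.46e-07 and 2.01e-07) and in WT by 2.18 and 1.48 (limma adjusted p = 6.03e-06 and 1.26e-05). The 7 that rose in OE are all HT1 genes, and of the 8 that fell only 3 are not. Under drought, the HT1 genes Potri.012G080000 and Potri.018G001900 were lower in OE than in WT (-1.02 and -0.96, limma adjusted p = 0.0213 and 0.00900). The first of these calls was lost under 4 alternatives (at most 0.110). In that comparison 4 of the 19 were higher and 5 lower in OE (9.23% and 20.4% of all tested genes). Apart from HT1 the list holds 5 genes, a pair each of FAMA and ALMT12 and 1 SLAC1 gene. FAMA is the factor of the last step of guard cell differentiation, and ALMT12 is a guard cell anion channel. The SLAC1 gene (Potri.001G114300, the main guard cell anion channel) lay at 0.00 to 0.602 FPKM in all libraries. The summed FPKM of these 5 was 10.7 to 11.5 in OE drought and 43.6 to 93.5 in OE watered, against 11.5 to 60.1 in WT drought and 27.0 to 39.9 in WT watered leaves. OE drought is below OE watered without overlap, and the WT groups overlap. The sum over all 22, mostly HT1, was 365 to 382 in OE drought and 249 to 344 in OE watered, against 329 to 346 in WT drought and 210 to 246 in WT watered leaves.

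FAMA Potri.017G054500 fell with drought in OE (-2.34 ± 0.32, limma adjusted p = 5.73e-05) and was at -0.64 ± 0.32 in WT (limma adjusted p = 0.107). The WT value passed with median-of-ratios scaling (0.0400) and without WT drought replicate 5 (0.0126). Between genotypes under drought this FAMA gene was lower in OE, at -1.02 (limma adjusted p = 0.0332, range 0.00415 to 0.110). That call was lost under 8 alternatives. Of the 4 tested markers apart from HT1, this FAMA gene alone passed there. FAMA Potri.001G314400 stood at 2.12, 1.65 and 1.72 FPKM in OE drought and 8.82, 20.4 and 13.0 FPKM in OE watered, against 5.16, 9.23 and 1.54 FPKM in WT drought and 6.89, 5.59 and 9.56 FPKM in WT watered leaves, and fell in OE (-2.34, limma adjusted p = 0.000525). In WT it was at -0.59 (limma adjusted p = 0.258) and passed without WT drought replicate 5 (0.0453). ALMT12 Potri.001G144300 fell in OE by -2.86 ± 0.39 (limma adjusted p = 6.11e-05) and in WT by -1.28 ± 0.39 (limma adjusted p = 0.0160). The WT call ranged from 0.000899 to 0.0598 over the alternatives and was lost without WT watered replicate 3 (0.0598) or WT drought replicates 4 (0.0502) or 6 (0.0597). Its partner Potri.005G208500 was at 7.54, 30.4 and 5.16 FPKM in WT drought and 0.512, 0.919 and 0.837 FPKM in WT watered leaves, and rose there (2.76 ± 0.52, limma adjusted p = 0.000895). In OE leaves this partner did not pass with drought, unlike the other 3 tested markers apart from HT1, which fell. Epidermis markers (13 genes) summed to 33.3 to 61.8 FPKM in OE drought and 107 to 136 in OE watered, against 94.2 to 117 in WT drought and 91.7 to 94.1 in WT watered leaves. What part these cell markers have in the differences of KAT1, KAT3 and SRK2E was not tested.

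**Figure D5:**
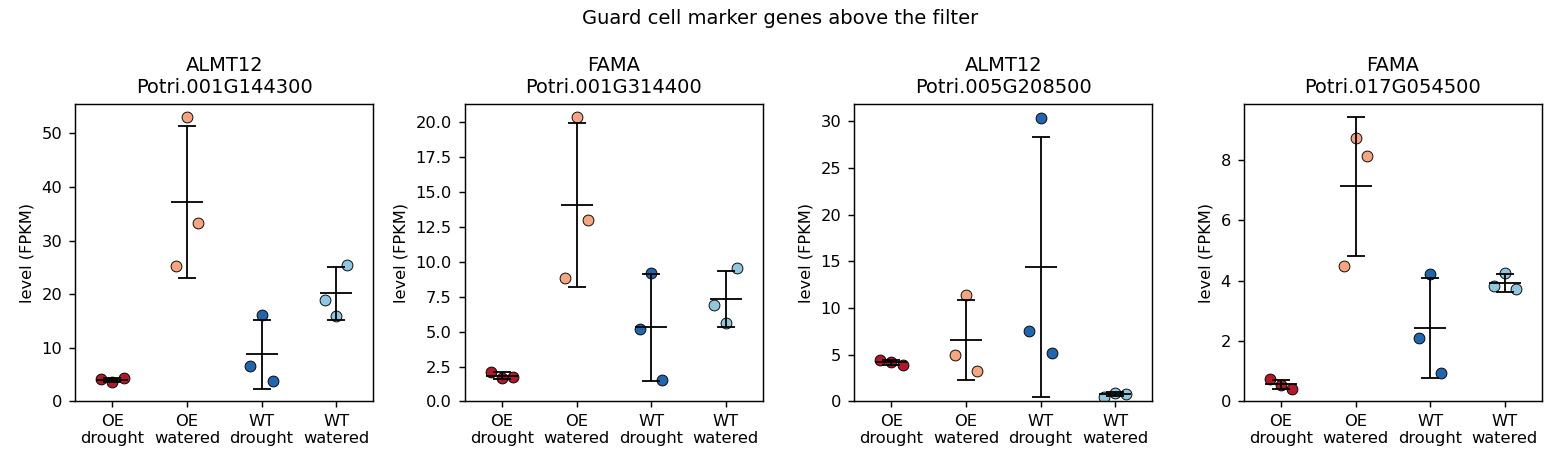
Level in FPKM of the 4 guard cell marker genes above the filter, apart from HT1, in each library (points), with group mean and SD (bars, n = 3). All 3 OE drought libraries are low for both FAMA genes and for ALMT12 Potri.001G144300, and the WT drought libraries spread widely (3.81 to 16.1 FPKM for that ALMT12 gene). The other ALMT12 gene, Potri.005G208500, rose with drought in WT leaves (log2 difference 2.76) and did not pass in OE leaves.

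The genes whose log2 levels followed each of the 3 most closely over the 12 libraries differed between them. KAT1 was most like 4-coumarate-CoA ligase 2 (Potri.019G049500, Pearson r = 0.958), adenine phosphoribosyltransferase 5 (Potri.018G026200, 0.950) and leucoanthocyanidin dioxygenase (Potri.016G117100, 0.940), and only 13 genes exceeded 0.9. The first of these was at 59.3 to 60.6 FPKM in OE drought and 51.2 to 53.8 in OE watered, against 21.7 to 35.9 in WT drought and 51.3 to 60.2 in WT watered leaves. KAT3 was like many: 2315 genes exceeded 0.9, led by Potri.010G056600, Potri.006G125500 (CDC48 homologue, a protein-unfolding ATPase) and Potri.006G053300, each at 0.990. For SRK2E, 136 genes exceeded 0.9, and the nearest was the SNF1-related kinase regulatory subunit beta-1 (Potri.001G220800, 0.966), then the protease SBT3.6 (Potri.019G083300, 0.966) and the transporter NPF4.3 (Potri.003G000800, 0.964). That subunit was at 4.98 to 6.71 FPKM in OE drought and 8.84 to 9.83 in OE watered, against 15.9 to 18.5 in WT drought and 5.33 to 7.12 in WT watered leaves. Among the 3 genes, r was -0.83 for KAT1 with SRK2E, -0.27 for KAT1 with KAT3 and 0.07 for KAT3 with SRK2E. These values describe 12 libraries that fall into 4 groups and share library composition.

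On the chromosomes, genes of the table near KAT3 and SRK2E were set beside them. MARD1 (Potri.018G035400), 19196 bp before KAT3, fell with drought in OE (-1.94, limma adjusted p = 0.000128) and in WT (-2.36, limma adjusted p = 5.16e-05). DDR4 (Potri.018G035700), 12684 bp after it, rose in OE (0.81, limma adjusted p = 0.00139) and in WT leaves (0.49, limma adjusted p = 0.0288, range 0.0237 to 0.131). That WT call was lost without WT watered replicates 2 (0.107) or 3 (0.0814), without WT drought replicates 4 (0.0975) or 5 (0.0507), and with median-of-ratios scaling (0.131), scaling outside the most abundant genes (0.0642) or only the WT groups (0.0560). A pentatricopeptide repeat gene (Potri.009G106800), 6366 bp before SRK2E, was at 0.13 in OE and 0.71 in WT (limma adjusted p = 0.703 and 0.0515). The WT value passed with only the WT groups (0.0229) and without WT drought replicate 5 (0.0351) or OE drought replicates 5 (0.0114) or 6 (0.0372). KIN-12D (Potri.009G107001), 2689 bp after SRK2E, was below the filter, at 0.00 FPKM in all libraries but 2 of WT watered leaves (0.241 and 0.0826 FPKM).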

How the data were processed

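Messenger RNA of 12 leaf libraries was analysed, 3 in each of 4 groups, grouped by the labels. The authors deposited FPKM per gene, with descriptions and coordinates, for 35747 genes. HISAT2 2.1.0 and Bowtie2 2.2.3 are listed, without roles, in the submitters' processing notes. Genome build and counting tool: not given in the sources used here. Fragments were recovered from the FPKM step of each library: for all 35747 genes they came out whole within 0.02, and library totals were 9682111 to 12131416. A second deposited FPKM table was not used.

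The 25373 genes that reached 1 FPKM in 3 or more libraries were fitted as log2(FPKM + 1) with limma 3.58.1 in R 4.3.3, with 4 group means, 8 residual degrees of freedom and a variance trend, with Benjamini-Hochberg adjustment across every tested gene and a threshold of 0.05. The script was tested on simulated data. The contrasts were drought minus watered in each genotype, OE minus WT in each watering, and the difference of the drought responses. All groups share 1 spread estimate, and comparisons with a common group are not independent.

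Gene lists (Shaker channels, SnRK2 kinases, other potassium transport, anion channels and proton pumps, ABA receptors, clade A PP2C phosphatases, ABF and AREB factors, guard cell kinases and oxidases, and guard cell, mesophyll, epidermis, phloem and xylem markers) came from description patterns. KAT1, KAT3, SRK2E and the lists were chosen with earlier results of these data known. Calcium pumps that matched the pump pattern were left out. Genes named are the 3 genes, all tested Shaker and SnRK2 genes, the 3 described genes most correlated with each of the 3, and their neighbours. For other lists the rule was up to 3 genes past the threshold with the largest change per contrast. Not all genes that met this rule are given in the text. FAMA, ALMT12 and SLAC1 genes outside that rule are given because the list apart from HT1 is so short, chosen after their values were seen. Alternatives were a pseudocount of 0.1, no filter, 2 other scalings, only the groups of a contrast, voom on recovered fragments, a log2 difference of at least 1, a block of replicate numbers and leaving out each library. No nucleotide or protein sequence was used.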

Additional observations from a re-analysis of the deposited data

Results flagged for a closer look

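Drought responses that differed between the genotypes were singled out as the difference, OE minus WT, of drought minus watered (log2). SRK2E (Potri.009G106900) was at -1.89, and every OE drought library lay below the OE watered ones and every WT drought library above the WT watered ones. This is a description and was not tested, since the gene was selected on these values. The OE groups are apart by 22.8 against 23.0 FPKM, a gap smaller than counting error (exact Poisson interval of that OE drought library 20.9 to 24.8 FPKM), and 2.27% of all tested genes showed this crossing. Selected and left untested in the same way, KAT1 was at 2.00 and KAT3 at 0.93. The others were singled out by the test of that difference (limma adjusted p).

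Among SnRK2 kinases, SAPK2 (Potri.005G162500) was at -1.08 (limma adjusted p = 0.0217, range 0.0170 to 0.0600), lost with median-of-ratios scaling (0.0502) and without WT watered replicate 2 (0.0600) or WT drought replicate 4 (0.0512). The other SRK2E gene (Potri.004G145500) was at -1.01 (limma adjusted p = 0.0348, range 0.00548 to 0.125). Its call was lost without WT watered replicates 1 (0.0531), 2 (0.0889) or 3 (0.0591), WT drought replicates 4 (0.0798) or 5 (0.0741), OE watered replicates 2 (0.0690) or 3 (0.0511), or OE drought replicates 4 (0.0567) or 5 (0.0703), and with median-of-ratios scaling (0.125) or the block of replicate numbers (0.0785). SRK2H (Potri.T011000) was at -0.84 (limma adjusted p = 0.0495, range 0.0460 to 0.191) and was lost under 16 of 18 alternatives. Among them were leaving out WT watered replicates 1 (0.101), 2 (0.115) or 3 (0.0617), WT drought replicates 4 (0.0911) or 5 (0.0835), OE watered replicates 1 (0.0705) or 3 (0.0819), and OE drought replicates 4 (0.106), 5 (0.0811) or 6 (0.0522).

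Of the other lists, the gene with the largest difference past the threshold is given, with FAMA as the next guard cell marker after ALMT12. The oxidase RBOHD (Potri.003G159800) was at 3.44 (limma adjusted p = 0.00294) and ALMT12 (Potri.005G208500) at -3.15 (limma adjusted p = 0.0191), and neither was lost in any alternative (at most 0.0320 and 0.0449). The potassium antiporter KEA1 (Potri.002G157200) was at 1.24 (limma adjusted p = 0.0247, range 0.00238 to 0.0596), lost without WT watered replicate 1 (0.0596), WT drought replicates 4 (0.0595) or 5 (0.0536), OE watered replicate 1 (0.0527) or OE drought replicate 4 (0.0536), and with the block (0.0529). The ABA receptor PYL2 (Potri.018G054400) was at -1.93 (limma adjusted p = 0.0181, range 0.00632 to 0.0520) and the ABF-type factor Potri.009G101166 at -1.64 (limma adjusted p = 0.0179, range 0.00215 to 0.0514), each lost without WT watered replicate 2 (0.0520 and 0.0514). Protein phosphatase 2C 75 (Potri.015G133900) was at 1.71 (limma adjusted p = 0.0151, range 0.00978 to 0.535), lost with a pseudocount of 0.1 (0.0955) and by voom (0.535). FAMA (Potri.017G054500) was at -1.70 (limma adjusted p = 0.0306, range 0.00403 to 0.0637). It was lost without WT watered replicates 1 (0.0620), 2 (0.0637) or 3 (0.0617), WT drought replicate 4 (0.0618), OE watered replicates 2 (0.0626) or 3 (0.0573), or OE drought replicates 4 (0.0512), 5 (0.0575) or 6 (0.0507), and with median-of-ratios scaling (0.0537).

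The marker lists of other cell types are read against all tested genes. Of those, 4.58% had a more positive and 10.5% a more negative drought response in OE. In the mesophyll list 0 of 27 tested genes were higher and 7 lower by limma (0 higher at an unadjusted p under 0.05 and 0 by voom), and in the epidermis list 0 of 7 higher and 4 lower (0 unadjusted, 0 by voom). The phloem list had 1 higher and 2 lower of 30, and the xylem list 1 higher and 1 lower of 47. Nothing particular to the phloem or xylem list is read from these counts. Chlorophyll a-b binding protein 8 (Potri.014G172400) of the mesophyll list was at -3.46 (limma adjusted p = 0.0389, range 0.0187 to 0.0825). It was lost under 12 of 18 alternatives, among them leaving out WT watered replicates 1 (0.0700), 2 (0.0825) or 3 (0.0699), WT drought replicate 5 (0.0786) and OE watered replicates 1 (0.0759), 2 (0.0651) or 3 (0.0617). The epidermis factor HDG2 (Potri.002G230200) was at -2.29 (limma adjusted p = 0.0118) and the phloem sucrose transporter SUC2 (Potri.019G085800) at -1.90 (limma adjusted p = 0.00609), neither lost in any alternative (at most 0.0382 and 0.0295). Laccase-3 (Potri.013G152700) of the xylem list was at -1.25 (limma adjusted p = 0.0237, range 0.0124 to 0.0632), lost without WT watered replicate 2 (0.0632) or OE drought replicate 5 (0.0524), and with the block (0.0517).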

How the results depend on the processing

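No difference of KAT1, KAT3 or SRK2E that exceeded its replicate spread changed sign in the alternatives run. With a pseudocount of 0.1 and by voom, KAT1 stood at -2.58 and -2.70 for WT drought, 2.63 and 2.75 for OE minus WT drought, and 2.75 and 2.88 for the difference of responses; KAT3 stood at 2.04 and 2.10 for WT drought and 3.15 and 3.24 for OE drought. With median-of-ratios scaling SRK2E stood at 1.05 for WT drought, -1.12 for OE minus WT drought and -1.49 for the difference of responses, and KAT3 at 1.28 for the last. With the median of all genes subtracted, chosen after seeing the data, SRK2E stood at 1.09, -1.18 and -1.61.

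Counts of called genes over the whole table moved more. With median-of-ratios scaling 5721 rose in WT drought (8614 in the main fit); 3858 were higher and 2575 lower in OE than WT drought; and 2026 responses were more positive and 1054 more negative in OE (1163 and 2659). That scaling put the share of calls that were higher at 45.3% in place of 61.0% (WT drought), 58.8% in place of 71.4% (OE minus WT watered), 60.0% in place of 31.1% (OE minus WT drought) and 65.8% in place of 30.4% (difference of responses). A pseudocount of 0.1 put the watered share at 84.2%. Requiring a log2 difference of at least 1 left 3965 raised in WT, 4324 raised in OE, and 1356 higher and 2078 lower in OE than WT drought. With only the drought groups in the fit, 1434 were higher and 1717 lower. For watered OE minus WT, 25 were higher and 10 lower, against 16 and 3 with a pseudocount of 0.1, 10 and 5 by voom, 0 and 0 with only the watered groups, and 16 lower without the filter. voom called 745 responses more positive. Leaving out 1 library gave 4 (without WT watered replicate 2) to 65 (without WT drought replicate 6) higher and 3 (without WT watered replicate 1) to 179 (without OE watered replicate 3) lower when watered, 2562 (without WT drought replicate 4) to 6269 (without WT drought replicate 6) lower under drought, and 659 to 1934 positive and 819 to 4794 negative differences of response (without WT watered replicate 2 and WT drought replicate 6 in both). The causes were not tested.

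Replicate numbers were not taken as pairs in the main fit. To look for pairing, each gene's group mean was subtracted, and the deviations of OE and WT libraries were correlated. Those of same-numbered libraries correlated at 0.01, -0.50 and -0.02 when watered and -0.05, 0.22 and 0.13 under drought. Not every library was most like its own number, though OE drought replicates 5 and 6 were. With 3 replicates per group, these values cannot exclude a pairing. The replicate block gave 4 higher and 1 lower when watered, and 753 positive and 1399 negative differences of response. Depth limits KAT1 in WT drought (22 to 75 fragments) and KAT3 in watered leaves (21 to 49).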
